A study of Mus musculus with 2 samples.

Results

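Cholesterol is made from acetyl-CoA along a chain of enzymes that runs through mevalonate, farnesyl pyrophosphate, squalene and lanosterol. SREBP transcription factors, held in the endoplasmic reticulum by SCAP and INSIG proteins while sterols are plentiful, switch on the genes of this chain together with those of fatty acid synthesis and desaturation. The brain makes its cholesterol locally, and in the first postnatal weeks oligodendrocytes draw on this synthesis to build myelin, a membrane rich in cholesterol, galactolipids and long-chain fatty acids. The genes described here are 35 genes of these pathways in mouse cerebrum. They were chosen by name, as genes of cholesterol synthesis, sterol regulation, sterol carriage and fatty acid synthesis, each read through the probe sets that the array's annotation pairs with that gene alone. Of the 35 genes, 33 were measured, out of 13892 genes measured on the arrays. Acat2, which joins acetyl-CoA units at the head of the mevalonate steps, and Soat1, which esterifies cholesterol for storage, had no probe set paired with them alone and were not analysed here.

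The data were 2 Affymetrix mouse genome arrays of total RNA from cerebrum at postnatal day 14, 1 from a lag mutant and 1 from a wild-type littermate. The lag (laggard) mutation is a recessive G-to-A change at the splice acceptor of exon 5 of Kif14, a gene for a mitotic kinesin. It arose spontaneously during gene targeting with 129/SVJ-derived embryonic stem cells and C57BL/6N x DBA/2N F1 females and was backcrossed to C57BL/6J. How many mice gave each RNA sample, and whether either carried the allele being targeted when the mutation arose, is not stated. With 1 array per genotype no difference had a replicate check, no test was possible, and every difference below compares these 2 samples. Each value is a MAS5 signal, a linear brightness that was globally scaled per array. A signal was taken as above background when it exceeded 49.2, the 95th percentile of 129 probe sets for olfactory, taste and vomeronasal receptors and keratin-associated proteins. A gene took the value of its brightest probe set, and log2 ratios are of lag mutant over wild-type.

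Markers of several cell types differed between the 2 samples, those of oligodendrocytes by far the most. The summed signal of 7 of 8 listed markers of myelinating oligodendrocytes was 2380 in the lag mutant and 34492 in wild-type, 0.069 times, with all 7 lower. Mog at 1.45 and Mobp at 26.5 were under background in the mutant. The 5 listed markers of oligodendrocyte precursors summed to 5616 in the mutant and 10654 in wild-type, 0.527 times. All 5 were lower by their brightest probe sets. For Pdgfra 2 of 3 probe sets were lower, and the highest gave a log2 ratio of 0.34. The paper counts Olig1, Olig2 and Sox10 among genes that rise as oligodendrocytes mature, so the sum is not of precursors alone. In the paper's PCR of whole brain at earlier ages, Olig2 and Pdgfra were not noticeably different. The 8 astrocyte markers summed to 46865 in the mutant and 53773 in wild-type, with 6 lower, and the 8 neuronal markers to 71847 in the mutant and 71941 in wild-type, with 4 lower. Of 7 measured microglial markers 6 were higher in the mutant, with sums of 9089 in the mutant and 7713 in wild-type. The 6 endothelial markers were all lower, with sums of 4902 in the mutant and 5389 in wild-type. In RNA of whole tissue, fewer cells of a type and less RNA per cell cannot be told apart. The part of these cell types in the values below was not tested. The single Kif14 probe set read 0.733 in the mutant and 6.85 in wild-type, under background on both arrays, so it did not check the genotype labels.

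Beside these markers, the cholesterol and fatty acid genes differed little between the 2 arrays. In the lag mutant 0 of the 33 were lower by 1.5-fold or more, as 3.53% of all measured genes were, and 0 were higher by that much, as 4.26% of all genes were. At 2-fold the same shares were 1.02% and 0.749%. For 33 genes counts of 0 are close to these shares, so the counts do not set the members apart from other genes. The shares also include dim genes, whose ratios scattered more than those of genes as bright as the 33. By any amount 23 of the 33 were lower and 10 higher, and 48.0% of all measured genes were lower. The median log2 ratio of the 33 was −0.091, against 0.012 over all measured genes, and their signals summed to 100017 in the lag mutant and 107051 in wild-type, 0.934 times. When each gene took the mean over all its probe sets above background, the median was −0.0093 and 18 of the 33 were lower, so the size of the downward shift depended on how probe sets were combined. By their brightest probe sets the largest differences were those of Dhcr7, 1.45-fold lower in the mutant, Idi1, 1.31-fold lower, Elovl5, 1.27-fold lower, Fdps, 1.27-fold higher, and Lss, 1.25-fold higher. By the mean over probe sets Dhcr7 stayed at −0.54 and Fdps at 0.34, Elovl6 came to −0.53 and Elovl5 to −0.41, and Idi1 and Lss were nearer to 0, at −0.14 and 0.024.

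**Figure D1:**
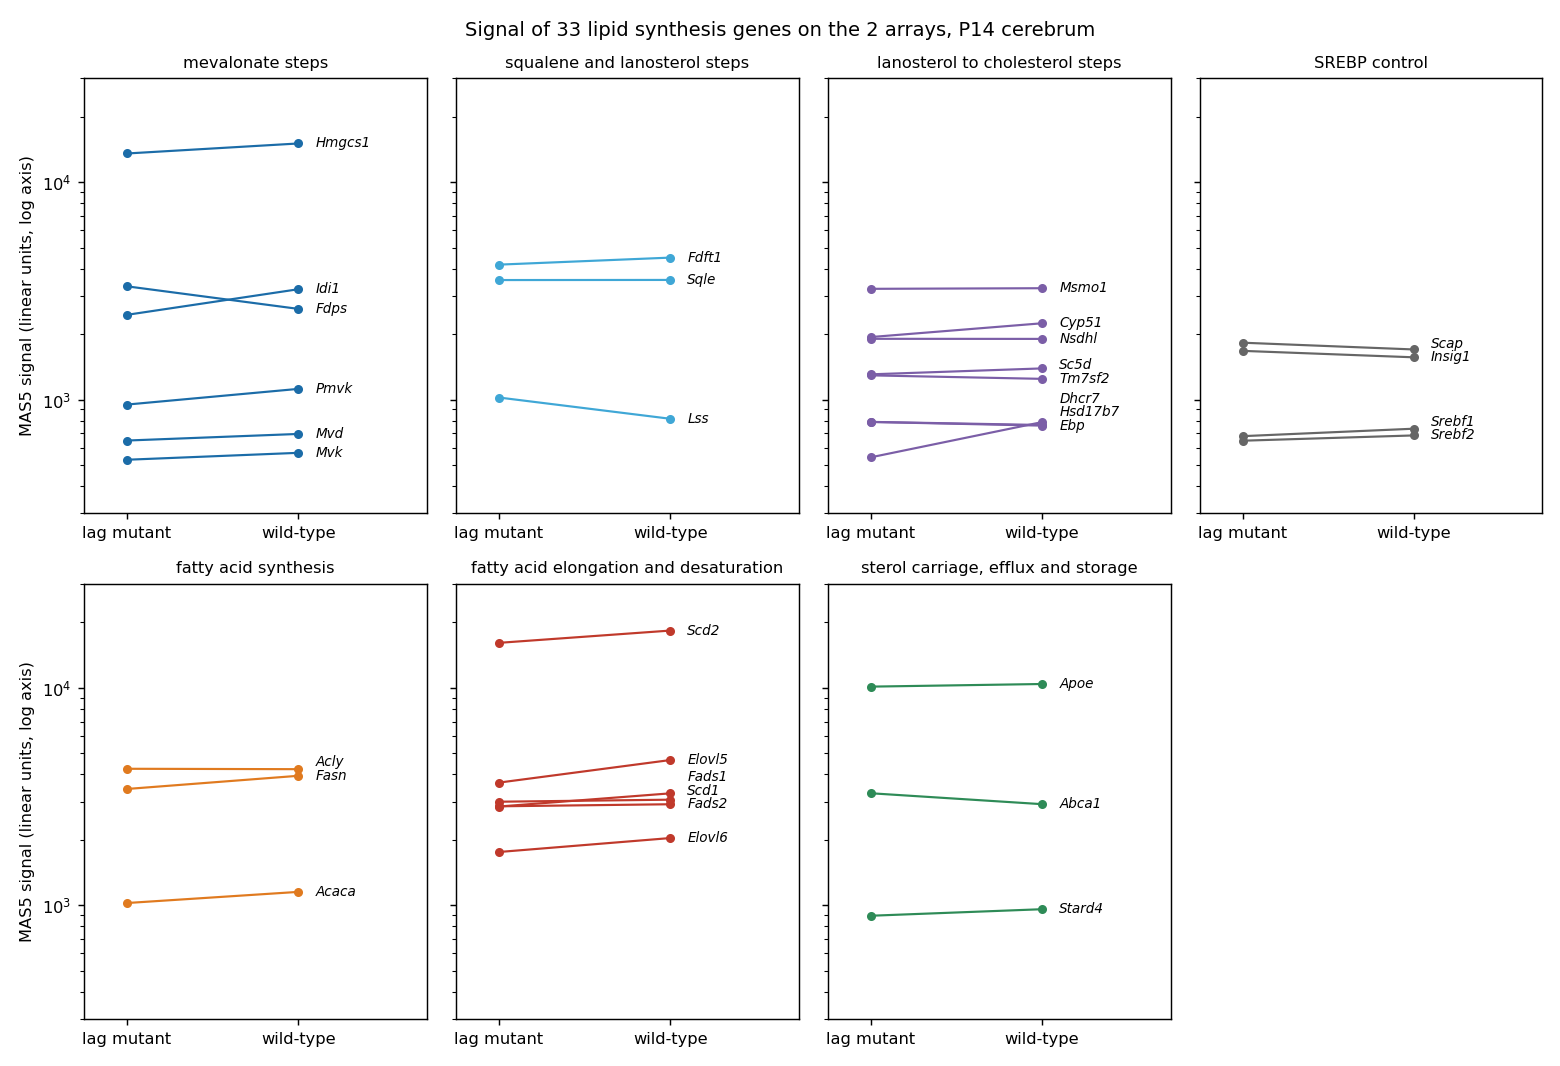
MAS5 signal on a log axis of the 33 measured genes in the lag mutant (left point of each line) and in wild-type (right point), 1 array each, in panels by role. Nearly all lines are close to level, the steepest being Dhcr7 at 542 in the mutant and 788 in wild-type.

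All 33 genes were bright. When the measured genes were split by mean signal over both arrays into 4 classes of equal size, 20 of the 33 fell in the brightest class and 13 in the next, and ratios scattered less in these classes than in the dimmer ones. In the brightest class the log2 ratios had an SD of 0.26 and 95% of genes lay between −0.37 and 0.41. In the next class the SD was 0.29 and 95% of genes lay between −0.51 and 0.48. Dhcr7 (−0.54, in the second of these classes) and Idi1 (−0.39, in the brightest) lay just below these ranges, and all other members lay inside.

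**Figure D2:**
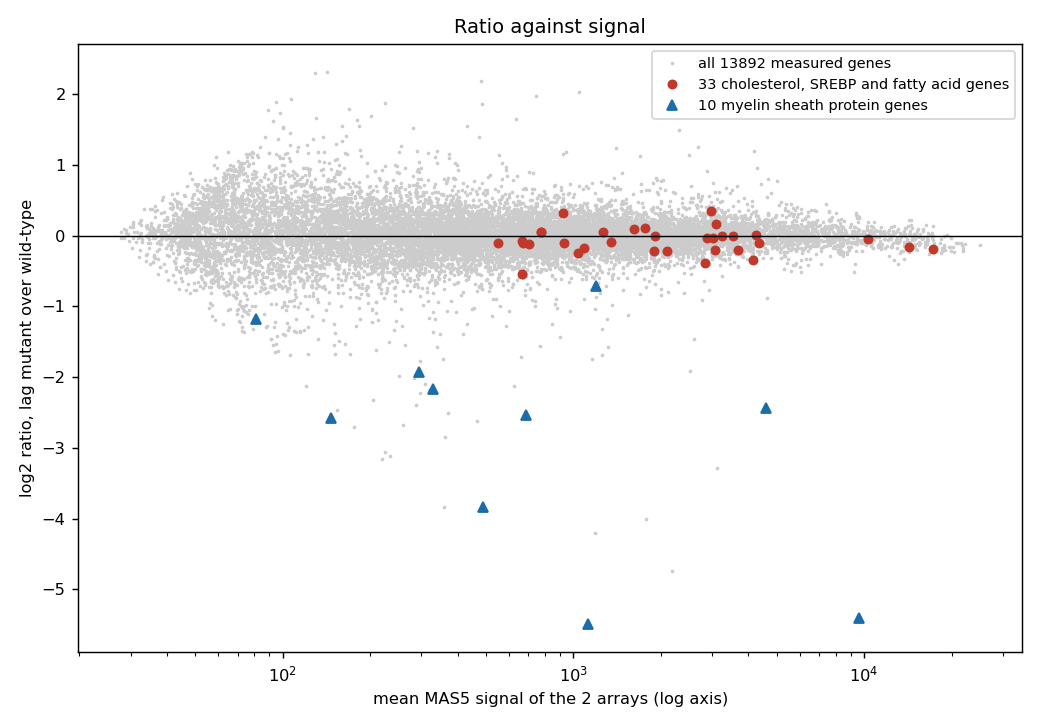
Log2 ratio of lag mutant over wild-type against the mean MAS5 signal of the 2 arrays (log axis) for all 13892 measured genes in grey, the 33 cholesterol, SREBP and fatty acid genes in red and 10 myelin sheath protein genes in blue triangles. The red points stay between −0.54 and 0.34 in the bright part of the plot, while the myelin genes reach −5.50.

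The promoters of these genes are shown for those members with the largest differences or the sterol element that have an annotated window, and for Insig1 as a member with an E-box. SREBP proteins bind sterol regulatory elements, searched as TCACNCCAC, and E-boxes, searched as CACGTG, and work beside NF-Y, which binds the CCAAT box, searched as CCAAT. Each was searched on both strands of the RefSeq window from 250 bases before to 50 bases after an annotated start (GRCm38.p6), and no match of one motif overlapped a match of another in the members. The 150 bases before the start are printed 5′ to 3′ on the plus strand, with matches in capitals (ATTGG is CCAAT read on the other strand).
Hmgcs1, chr13:119690201-119690350: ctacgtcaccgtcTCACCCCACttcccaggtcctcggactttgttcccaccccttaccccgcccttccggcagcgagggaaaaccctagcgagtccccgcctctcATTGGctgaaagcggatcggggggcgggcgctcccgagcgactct
Idi1, chr13:8885456-8885605: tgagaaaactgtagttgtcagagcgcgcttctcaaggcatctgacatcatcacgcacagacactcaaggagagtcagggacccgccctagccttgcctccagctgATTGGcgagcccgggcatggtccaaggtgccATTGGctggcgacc
Lss, chr10:76531455-76531604: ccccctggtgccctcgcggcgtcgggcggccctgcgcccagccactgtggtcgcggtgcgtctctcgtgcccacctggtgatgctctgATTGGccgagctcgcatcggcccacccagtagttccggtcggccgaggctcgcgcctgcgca
Dhcr7, chr7:143830064-143830213: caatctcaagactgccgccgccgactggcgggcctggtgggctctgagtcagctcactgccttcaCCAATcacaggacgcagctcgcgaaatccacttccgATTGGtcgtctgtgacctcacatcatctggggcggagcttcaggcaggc
Insig1, chr5:28071262-28071411: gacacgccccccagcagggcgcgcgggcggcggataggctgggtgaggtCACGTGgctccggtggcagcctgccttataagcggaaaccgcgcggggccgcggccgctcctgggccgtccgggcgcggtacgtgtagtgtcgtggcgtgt
Elovl5, chr9:77917215-77917364: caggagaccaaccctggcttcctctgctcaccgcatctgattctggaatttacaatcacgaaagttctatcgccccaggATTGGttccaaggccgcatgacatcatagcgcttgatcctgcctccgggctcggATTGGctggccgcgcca
The Hmgcs1 run holds the sterol element TCACCCCAC, beginning at position −137 from the start, and a CCAAT box nearer to it. Idi1, Elovl5 and the Dhcr7 start shown, which is 1 of the annotated starts of that gene, each hold 2 CCAAT boxes. Over the 28 members with a window, 21 (75%) held a CCAAT box, against 41.1% of 27025 genes and 42.5% of the 11152 measured ones. An E-box was held by 7 (25%), against 8.09% of all and 11.3% of measured genes. The sterol element was held by 1, Hmgcs1, against 1.44% of all and 1.40% of measured genes. Among the measured members, the 20 with a CCAAT box had a median log2 ratio of −0.096 with 13 lower, and the 6 without had −0.036 with 4 lower. The 7 with an E-box (Abca1, Dhcr7, Elovl5, Hsd17b7, Insig1, Sc5d and Scap) had a median of 0.047 with 3 lower, and the 19 without had −0.10 with 14 lower. Among the 7 were the member lowest in the mutant, Dhcr7, and 4 of the 10 higher ones. The E-box of Dhcr7 is at another annotated start, and that of Elovl5 begins at position −161. Neither lies in the bases printed above. A match is a run of letters and not a measured binding site.

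The mevalonate steps were mostly slightly lower in the lag mutant, with 5 of 6 measured genes below wild-type and a median log2 ratio of −0.13 by their brightest probe sets. Of all measured genes 48.0% were lower. With the mean over probe sets 3 of the 6 were lower and 3 higher, with a median of −0.051. Hmgcs1, which makes HMG-CoA and carries the sterol element printed above, had a signal of 13548 in the lag mutant and 15064 in wild-type (log2 ratio −0.15). Its 5 probe sets above background did not share a direction, and 3 were lower. The other bright ones read 13342 in the mutant and 13884 in wild-type, 11771 in the mutant and 14212 in wild-type, and 4868 in the mutant and 4782 in wild-type. A dim one, at 176 in the mutant and 112 in wild-type, was 1.58-fold higher and was the 1 member probe set above 1.5-fold in that direction. Mevalonate kinase, Mvk, read 529 in the mutant and 569 in wild-type (−0.11), and its second probe set went the other way, at 344 in the mutant and 290 in wild-type. Phosphomevalonate kinase, Pmvk, read 948 in the mutant and 1120 in wild-type (−0.24). Mvd, the decarboxylase that yields isopentenyl pyrophosphate, read 648 in the mutant and 695 in wild-type (−0.10), and its second probe set was lower too (−0.18).

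The isomerase and the synthase that follow differed most within these steps, in opposite directions. Idi1, which interconverts the isoprene units, read 2453 in the lag mutant and 3217 in wild-type, 1.31-fold lower (−0.39). Its other probe set, at 1498 in the mutant and 1396 in wild-type, was 1.07-fold higher, so the mean over both was −0.14. Fdps, which joins the units into farnesyl pyrophosphate, read 3317 in the mutant and 2612 in wild-type, 1.27-fold higher (0.34). It was the member highest in the mutant, and its other probe set was under background on both arrays.

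At the squalene and lanosterol steps the 3 enzymes lay on both sides of 0, with a median of −0.0017. Fdft1, squalene synthase, read 4174 in the lag mutant and 4497 in wild-type (−0.11), and its second probe set read 2944 in the mutant and 3652 in wild-type (−0.31). Both of its probe sets above background were lower in the mutant. Sqle, squalene epoxidase, was nearly equal, at 3545 in the mutant and 3550 in wild-type. Lss, the cyclase that forms lanosterol, read 1022 in the mutant and 816 in wild-type, 1.25-fold higher (0.32). Its dimmer probe sets were on the other side, at 251 in the mutant and 281 in wild-type (−0.16) and at 47.5 in the mutant and 52.3 in wild-type, and the mean over all 3 was 0.024.

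From lanosterol to cholesterol 7 of 8 genes stayed within 1.16-fold and Dhcr7 stood apart. Cyp51, the lanosterol demethylase, read 1938 in the lag mutant and 2243 in wild-type (−0.21), while its dimmer probe sets were higher in the mutant, by 0.10 and 0.20 on the log2 scale. Tm7sf2, a sterol reductase, read 1292 in the mutant and 1245 in wild-type (0.053). Msmo1 and Nsdhl, which remove the methyl groups of the sterol ring, were nearly equal. Msmo1 read 3231 in the mutant and 3252 in wild-type (−0.0093), and Nsdhl read 1903 in the mutant and 1901 in wild-type (0.0014). Hsd17b7, a keto-reductase of the same demethylation, read 789 in the mutant and 764 in wild-type (0.047), and all 4 of its probe sets were higher in the mutant, by 0.035 to 0.38 on the log2 scale. This gene lies on chromosome 1, 33.5 Mb from Kif14. Ebp, the sterol isomerase, read 789 in the mutant and 759 in wild-type (0.056).

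The largest difference among the measured members was at the last step. Sc5d, the sterol desaturase before the final reduction, read 1306 in the lag mutant and 1391 in wild-type (−0.091), and its probe sets lay on both sides of 0, from −0.15 to 0.14. Dhcr7, which reduces 7-dehydrocholesterol to cholesterol, read 542 in the mutant and 788 in wild-type, 1.45-fold lower (−0.54). It was under the 1.5-fold mark, and it rests on 1 probe set. Over all 17 measured enzymes from HMG-CoA to cholesterol, 11 were lower and 6 higher, the median was −0.091, and 18 of 34 probe sets were lower. With the mean over probe sets the median of these 17 enzymes was 0.0014, with 8 lower and 9 higher.

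**Figure D3:**
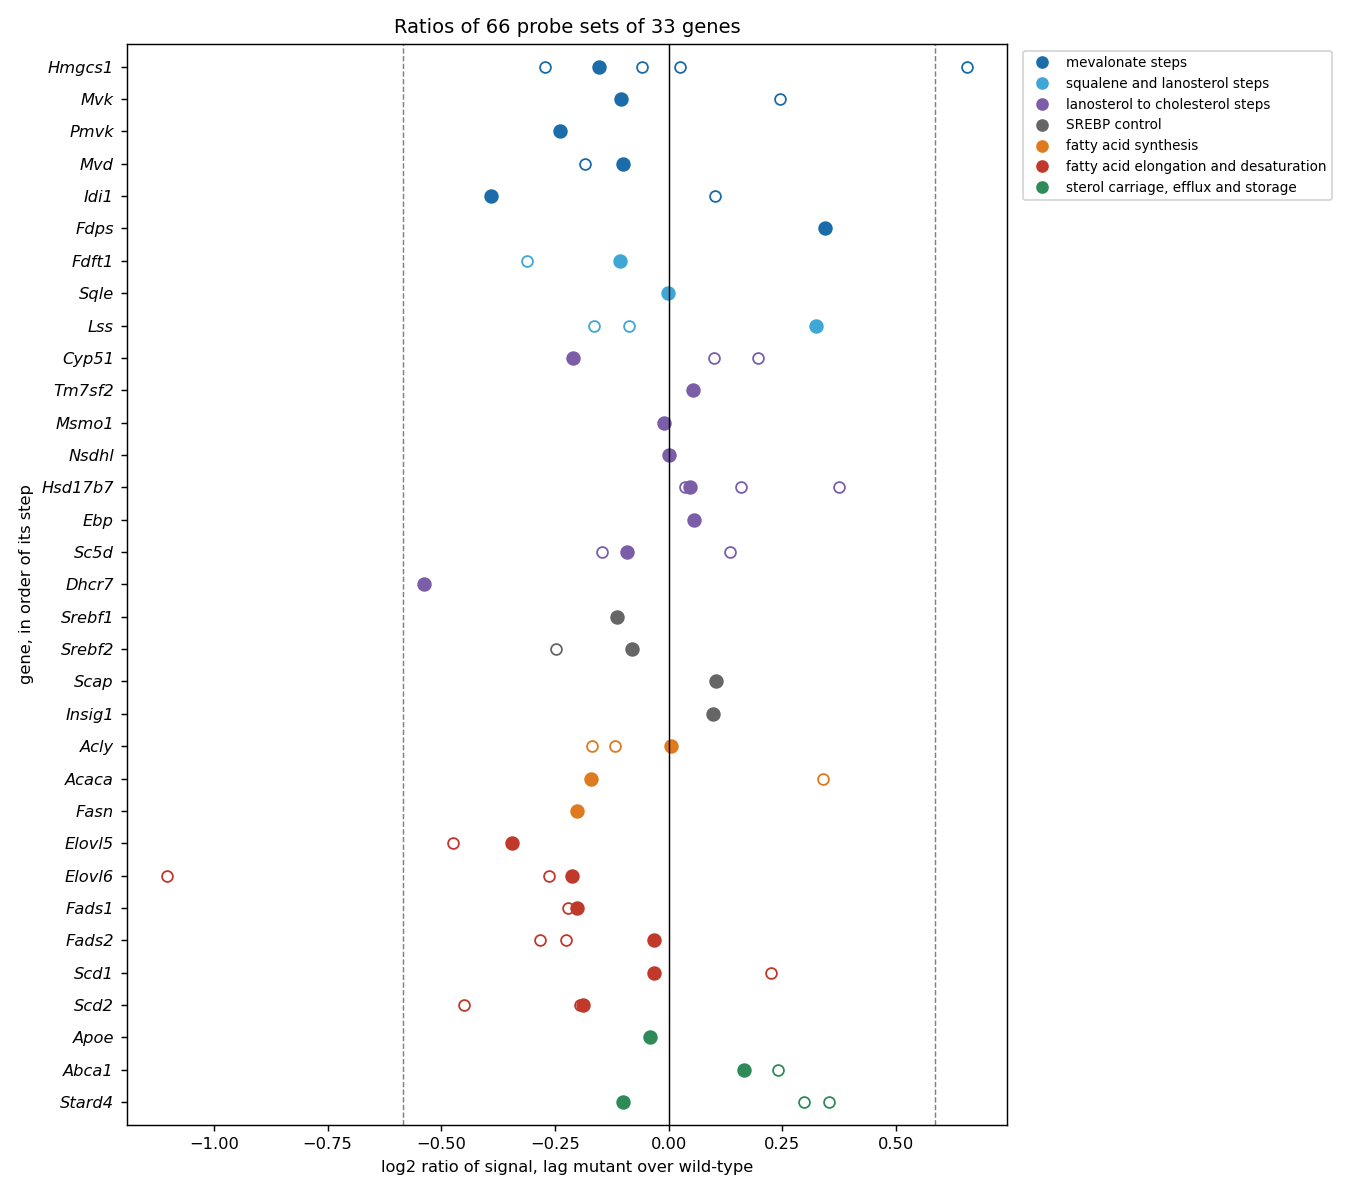
Log2 ratio of lag mutant over wild-type for each of the 66 probe sets above background, by gene in pathway order. Filled circles are the brightest probe set, which stands for the gene, open circles are the others, and dashed lines mark 1.5-fold. Probe sets of Hmgcs1, Idi1, Lss and Cyp51 fall on both sides of 0, whereas 14 of the 15 for elongation and desaturation lie left of it.

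The genes of SREBP control were close to level, 2 lower and 2 higher, with a median of 0.0089. Srebf1, whose product favours fatty acid genes, read 679 in the lag mutant and 734 in wild-type (−0.11). Srebf2, whose product favours cholesterol genes, read 647 in the mutant and 684 in wild-type (−0.081), and its second probe set read 488 in the mutant and 580 in wild-type (−0.25). Scap, the escort that brings SREBP to the Golgi, read 1826 in the mutant and 1700 in wild-type (0.10). Insig1, which holds SCAP back and is itself an SREBP target, read 1675 in the mutant and 1564 in wild-type (0.099). By their brightest probe sets these ratios ran from −0.11 to 0.10.

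The fatty acid genes were mostly lower in the lag mutant, with 8 of 9 genes and 18 of 21 probe sets lower and a median of −0.19. Over the whole array, 48.0% of measured genes and 48.7% of probe sets above background were lower. Under the mean over probe sets 7 of the 9 were lower and the median was −0.20. Their signals summed to 38917 in the mutant and 43598 in wild-type, 0.893 times, with Scd2 giving 16109 and 18343.5 of these. The marker sums were 0.069 times for myelinating oligodendrocytes, 0.527 for their precursors, 0.872 for astrocytes and 0.910 for endothelium. They were 0.999 times for neurons and 1.18 for microglia, and a link to any of these cell types was not tested. Acly, which supplies acetyl-CoA from citrate, read 4244 in the mutant and 4226 in wild-type (0.0062), but its other probe sets were lower in the mutant (−0.12 and −0.17), and its direction also turned with the scaling. Acaca, acetyl-CoA carboxylase, read 1024 in the mutant and 1152 in wild-type (−0.17), with a dim probe set on the other side at 75.6 in the mutant and 59.8 in wild-type. Fasn, fatty acid synthase, read 3427 in the mutant and 3940 in wild-type, 1.15-fold lower (−0.20).

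Elongation and desaturation were lower in the lag mutant in all 6 genes by their brightest probe sets, with a median of −0.19. By the mean over probe sets 5 of the 6 were lower, with a median of −0.24. By brightest probe sets 48.0% of all measured genes were lower. Elovl5, an elongase of polyunsaturated fatty acids, had the largest difference by the brightest probe sets, at 3666 in the mutant and 4655 in wild-type, 1.27-fold lower (−0.34). Its second probe set was at 3399 in the mutant and 4723 in wild-type, 1.39-fold lower. Elovl6, which lengthens the C16 products of fatty acid synthase, read 1758 in the mutant and 2037 in wild-type (−0.21). Its second probe set was lower too (−0.26), and a dim one, at 65.4 in the mutant and 141 in wild-type, was 2.15-fold lower, the 1 member probe set below 1.5-fold in that direction. By the mean over probe sets Elovl6 had the larger difference, at −0.53, and Elovl5 was at −0.41.

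The desaturases were also lower, by 1.02-fold to 1.15-fold. Fads1, the delta-5 desaturase, read 2845 in the lag mutant and 3271 in wild-type (−0.20), and its dimmer probe set gave −0.22. Fads2, the delta-6 desaturase and a neighbour of Fads1 on chromosome 19, read 2852 in the mutant and 2914.5 in wild-type (−0.031), and its other probe sets gave −0.23 and −0.28. Both probe sets of Fads1 and all 3 of Fads2 were lower in the mutant. Scd2, the main stearoyl-CoA desaturase of the mouse brain, read 16109 in the mutant and 18343.5 in wild-type, 1.14-fold lower (−0.19). Its other probe sets were also lower, at 3001 in the mutant and 3433 in wild-type and at 84.3 in the mutant and 115 in wild-type. Scd1, its neighbour on chromosome 19, read 2994 in the mutant and 3059 in wild-type (−0.031), and a dim second probe set was higher in the mutant, at 109 in the mutant and 93.6 in wild-type.

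Sterol carriage and efflux were close to level by their brightest probe sets, with a median log2 ratio of −0.040 over 3 measured genes. By the mean over probe sets the median was 0.18, and 4 of 6 probe sets were higher in the lag mutant. Apoe, the lipoprotein through which astrocytes pass cholesterol to other cells, read 10131 in the lag mutant and 10416 in wild-type (−0.040). Abca1, which loads cholesterol onto it, read 3274 in the mutant and 2917 in wild-type, 1.12-fold higher (0.17), and its dim second probe set was higher too (0.24). Stard4, a carrier of free sterol in the cytosol, read 895 in the mutant and 959 in wild-type (−0.10) in its brightest probe set but was higher in the mutant in the others, at 818 in the mutant and 666 in wild-type (0.30) and at 321 in the mutant and 252 in wild-type (0.35). The direction for Stard4 therefore turned with the probe set, and its mean over all 3 was 0.18.

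Probe sets of the same gene often differed in direction. Among the 20 members with 2 or more probe sets over background, 10 had them in both directions, and so had 55.3% of all such genes. The median SD between a member's probe sets was 0.15 on the log2 scale, against 0.20 over all such genes, and the widest range was 0.93, for Hmgcs1. Probe sets of a gene are read on the same RNA, so they are not replicates of a genotype. The brightest probe sets of Hmgcs1, Mvd, Fdft1, Hsd17b7 and Acly are of a kind that can bind other transcripts as well. With probe sets of 1 transcript only, the log2 ratio was −0.27 for Hmgcs1, −0.18 for Mvd, −0.31 for Fdft1, 0.035 for Hsd17b7 and −0.12 for Acly. Pmvk, Srebf1 and Apoe had no such probe set, and that of Msmo1, at 23.8 in the mutant and 20.5 in wild-type, was under background on both arrays. None of these genes had a value in that setting. Of the 75 probe sets paired with members, 66 were above background, and 62.1% of these were lower in the lag mutant, against 48.7% of 25222 probe sets over all genes.

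Other genes of the same pathways were also lower more often than higher, and some fatty acid elongases had larger differences, in both directions. Of 50 further genes 45 were measured, and 29 were lower and 16 higher in the lag mutant, where 48.0% of all measured genes were lower. The median log2 ratio of the 45 was −0.13. By 1.5-fold or more 2 of the 45 were lower, beside 3.53% of all measured genes, and 0 were higher, beside 4.26%. Elovl7, an elongase of long-chain fatty acids, read 220 in the mutant and 415 in wild-type, 1.89-fold lower, with all 6 of its probe sets lower. Elovl1, an elongase of very-long-chain fatty acids, read 357 in the mutant and 588 in wild-type, 1.65-fold lower, with all 3 of its probe sets lower. Elongases higher in the mutant were also present. Elovl2, an elongase of polyunsaturated fatty acids, read 1467 in the mutant and 1023 in wild-type, 1.43-fold higher, and Elovl4, an elongase of very-long-chain fatty acids, read 2881 in the mutant and 2623 in wild-type, a log2 ratio of 0.14, with 1 of its 2 probe sets lower. This pair was chosen with its values known.

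The brightest of the other genes lay on both sides of wild-type. By brightest probe sets the largest difference among those named here was that of Npc2, 1.27-fold lower. In sterol uptake and transport 17 genes were measured, with a median of −0.15. The lysosomal sterol carrier Npc2 read 2924 in the lag mutant and 3699 in wild-type, with all 3 of its probe sets lower. The receptor Lrp1 read 1903 in the mutant and 2321 in wild-type, and its other probe set was lower too (−0.75). The lipoprotein receptor Vldlr read 2665 in the mutant and 2417 in wild-type by its brightest probe set, but 4 of its 6 probe sets were lower. In the mevalonate and SREBP list, with 10 genes measured and a median of −0.12, Erg28, a scaffold of sterol demethylation, read 2029 in the mutant and 2276 in wild-type. The SREBP-cleaving proteases were nearly equal by their brightest probe sets. Mbtps2 read 1790 in the mutant and 1759 in wild-type, and Mbtps1 read 1368 in the mutant and 1335 in wild-type. The other probe set of Mbtps1 was higher in the mutant (0.28). In the fatty acid list, with 18 genes measured and a median of −0.10, the enoyl reductase Tecr of the elongation cycle read 7563 in the mutant and 7085 in wild-type. The dehydratases of that cycle were lower by their brightest probe sets. Hacd3 read 5615 in the mutant and 7037 in wild-type, with 2 of its 3 probe sets lower, and Hacd1 read 3571 in the mutant and 4129 in wild-type. Acacb was under background on both arrays, and Pdss1, Por, Nr1h2 and Acsl1 had no probe set of their own and were not analysed here.

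Enzymes of the lipids for which myelin is known included larger differences, and with 1 array per genotype the difference between the lists could not be tested. Of 14 enzymes of galactolipid and sphingolipid synthesis, 3 were at least 2-fold lower in the lag mutant, as 1.02% of all measured genes were. Ugt8a, which makes galactosylceramide, read 210 in the mutant and 3355 in wild-type, 16.0-fold lower. Fa2h, which hydroxylates its fatty acids, read 70.5 in the mutant and 449 in wild-type, 6.37-fold lower, and Gal3st1, which sulphates it, read 191 in the mutant and 502 in wild-type, 2.63-fold lower. By their brightest probe sets the other 11 were lower by less than 1.5-fold or were higher. Among them, 3 of the 4 probe sets of the sphingomyelin synthase Sgms1 were lower, with log2 ratios from −0.79 to 0.31. The paper lists Sgms1 among genes lowered more than 2-fold. Degs1, a ceramide desaturase, read 2666 in the mutant and 3348 in wild-type, the ceramide synthase Cers5 read 2427 in the mutant and 2413 in wild-type, and Sgms2, a sphingomyelin synthase, was 1.92-fold higher, at 160 in the mutant and 83.5 in wild-type. The median of the 14 was −0.20.

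Proteins of the myelin sheath were lower in 23 of 25 probe sets. Of all measured genes 3.53% were lower by 1.5-fold or more and 1.02% by 2-fold or more. In the lag mutant all 10 measured sheath genes were below wild-type by 1.5-fold or more and 9 by 2-fold or more. The median log2 ratio of these 10 sheath genes was −2.48. Their signals summed to 3374 in the mutant and 33748 in wild-type, 0.10 times, against 0.934 times for the cholesterol and fatty acid genes. Mbp, myelin basic protein, read 444 in the mutant and 18812 in wild-type, 42.3-fold lower, and 6 of its 8 probe sets were lower. Cnp, a phosphodiesterase of myelin, read 1434 in the mutant and 7730 in wild-type, 5.39-fold lower, and Mobp was at least 45.2-fold lower, at 26.5 in the mutant and 2224 in wild-type, with the mutant taken at the background level.

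**Figure D4:**
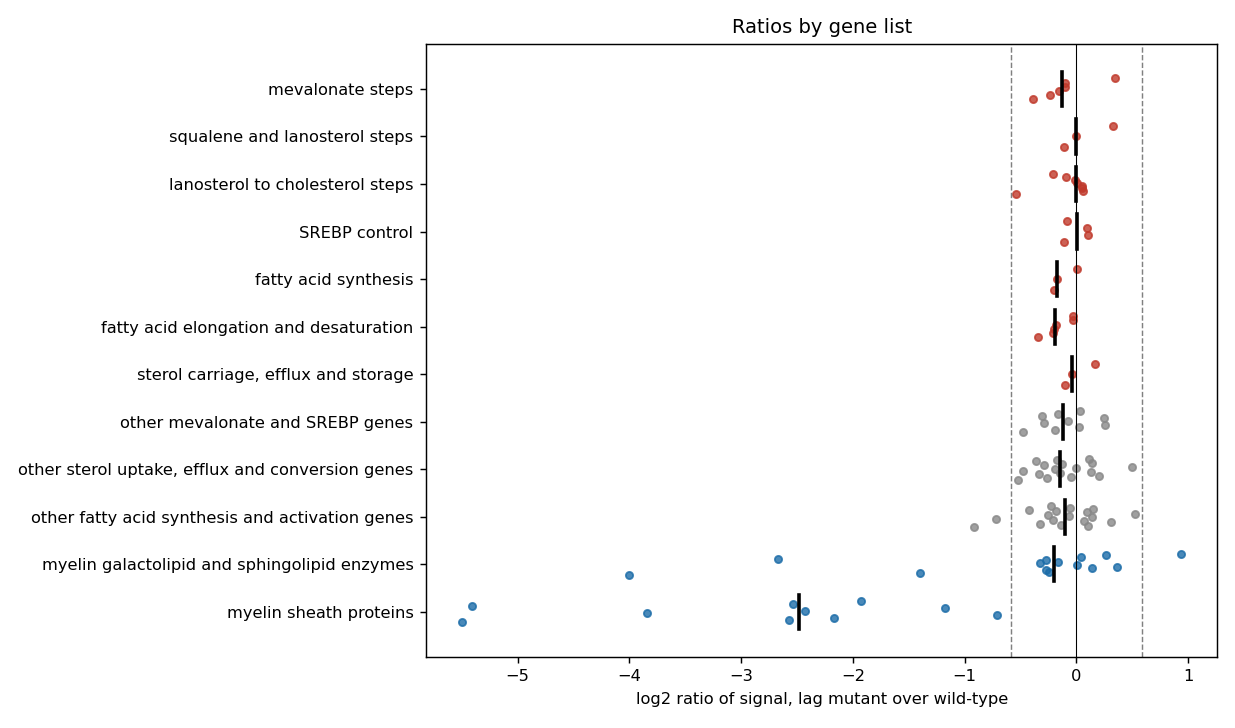
Log2 ratio of lag mutant over wild-type of each measured gene by list, with members in red, other genes of the pathways in grey and myelin lists in blue. Black bars are medians and dashed lines mark 1.5-fold. The member lists have medians between −0.19 and 0.0089, and the myelin sheath list has a median of −2.48.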

How the data were processed

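Total RNA of cerebrum from 1 lag mutant and 1 wild-type mouse sample had been hybridised to Affymetrix mouse genome arrays, 1 each. The deposited table holds linear intensities, which the authors computed in MAS5 with its default settings and scaled globally per array; detection calls were not used here. Median signals were 98.3 on the lag mutant and 105 on the wild-type array. The number of arrays limits the precision.

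Of 45101 probe sets, 34958 were paired with 1 gene in the platform annotation, 932 with several and 9211 with none. Probe sets of the first kind were used, for 18194 genes, with symbols brought up to date from gene identifiers in RefSeq of GRCm38.p6, where 34754 probe sets matched. Signals under 49.2 were raised to it before log2 ratios were taken. Genes were counted at 1.5-fold and 2-fold. The members, lists and thresholds were chosen with earlier results of these data known. All members were named, and of the other pathway and comparison lists those at least 1.5-fold different and the 3 brightest. For the myelin sheath proteins, all of which differed, examples were given. No column of sample values was left unused (0). Promoter windows were those of RefSeq. Alternatives were the mean over probe sets, probe sets of 1 transcript only, quantile normalization, the median of all genes set to 0, other background levels and log2(signal + 50). The calculation was tested on simulated data. Python 3.11.15, numpy 2.4.6, pandas 2.3.3 and matplotlib 3.10.9 were used.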

Additional observations from a re-analysis of the deposited data

How the results depend on the processing

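No paired analysis was possible because there was 1 array per genotype, and leaving out an array leaves no comparison. The counts of member genes at least 1.5-fold and 2-fold lower or higher stayed at 0 under all 10 settings, over the 33 genes in 9 of them and over 29 with probe sets of 1 transcript only, where Pmvk, Msmo1, Srebf1 and Apoe had no value. Their median log2 ratio lay between −0.10, with the median of all genes set to 0, and −0.0093, with the mean over probe sets. Under that mean the median for sterol carriage, efflux and storage was 0.18, because the dimmer probe sets of Stard4 were higher in the lag mutant, and Lss, 0.32 by its brightest probe set, was at 0.024. In the settings that measured them 17 genes were always lower, 8 always higher and 8 took both directions (Hmgcs1, Mvk, Cyp51, Nsdhl, Acly, Acaca, Scd1 and Stard4). A separate background level per array was added after seeing the data.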
